A study of Mus musculus with 139 samples.

Results

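Integrator and the cleavage and polyadenylation machinery make the 3′ ends of nearly all RNA polymerase II transcripts, and 33 genes of these complexes were followed by name through 7 gene expression tables of mouse cells that lose the RNA exosome. The set held 11 Integrator subunits and 22 genes of cleavage, polyadenylation and termination, out of 52885 genes listed in each table, and all 33 names were found in all 7 tables. The line, AID-FBEXOSC2, consists of embryonic stem cells (ESCs) whose EXOSC2, a subunit of the exosome, carries an auxin-inducible degron, so that 0.5 mM indole-3-acetic acid (IAA) triggers its degradation. All groups share this allele, and no IAA-treated cells without the degron were used here, so effects of IAA and of EXOSC2 loss cannot be told apart.

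Total RNA, freed of ribosomal RNA, came from ESCs after 0, 4 and 20 h of IAA and likewise from iMEFs, fibroblasts made from the same ESCs by 10 days in 1 µM retinoic acid without LIF. Nascent RNA of ESCs was labelled for 10 min with 5-ethynyluridine at 0, 1, 2 and 4 h of IAA. ESCs with 4 and 0 h of IAA were also divided into insoluble chromatin (chrRNP), soluble nucleoplasm (np) and cytosol (cyto), beside their unfractionated lysate (wcl). Libraries of polyadenylated RNA covered 0, 4 and 12 h in RNPmesh, the nuclear pellet that resists DNase I, urea, detergent and high salt. Further such libraries covered 0, 4 and 20 h in ESCs given retinoic acid at 2 µM for 24 h without LIF (RAD1) and in ESCs without it (RAD0). Each of these groups had 2 replicates, which may be technical. A single library was made from each sucrose gradient fraction, F2 to F9, of nuclear lysate after 12 and 0 h.

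Integrator cuts nascent RNA near promoters and at small nuclear RNA genes through a cleavage module of INTS4, INTS9 and INTS11, held by a backbone that includes INTS1, INTS2, INTS5 and INTS7, with a phosphatase module that includes INTS6 and INTS8. At the ends of messenger RNA genes, CPSF reads the poly(A) signal and its subunit CPSF3 cuts, CstF binds downstream of the cut, CFI (NUDT21 with CPSF6 or CPSF7) chooses among sites, and CFII (PCF11 with CLP1) couples cleavage to termination. Poly(A) polymerases (PAPOLA, PAPOLG) then add the tail, the exonuclease XRN2 degrades the downstream RNA, and RPRD1A, RPRD1B and RPRD2 bind the tail of the polymerase. PCF11 is known to limit its own messenger RNA through premature polyadenylation inside its gene.

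The values are FPKM (fragments per kilobase of gene, scaled to library size) or, for nascent RNA, RPKM over the whole gene, so they compare genes per length, and read depth is unknown outside the nascent table. There, 97.1% to 98.0% of the values per library lay within 0.05 of a whole multiple of 1 step, which implied 2677820 to 5653570 steps per library, with 15.0 to 48.0 steps for the lowest member in each. Changes are log2 differences on the scale log2(value + 1), which understates changes of low genes, and "called" means an adjusted p under 0.05 in limma over all genes tested in that table. Values are as deposited unless they are said to be rescaled, which levels the median gene of each library. Across genes, replicate libraries correlated at 0.773 to 0.818 in the nascent table and at 0.933 to 0.979 in the others (Pearson, log2 scale). Single RNAs took large shares of some libraries, up to 42.2% for Snord49b in RNPmesh 0 h replicate 2, 23.6% for Gm42418 in the nascent libraries, 19.3% for Mir6236 in RNPmesh 4 h replicate 1, 18.8% for Gm22357 in chrRNP and 15.2% for AY036118 in ESC 4 h replicate 1. Exosc2 messenger RNA, which does not measure the degraded protein, fell by 1.08 in ESCs at 20 h (adjusted p = 0.000991). The median change of all genes there was -0.76. Exosc2 also fell in RNPmesh at 12 h (-1.70), and was not called at 20 h in RAD1 (0.07), RAD0 (-0.45) or iMEFs (-0.34).

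Marker genes were checked against the labels. Summed FPKM of 5 ESC markers was 874 and 809 in untreated ESCs, and all 5 were above 1. Those 5 summed to 1.08 and 0.541 in untreated iMEFs, where 5 fibroblast markers summed to 999 and 1016. In untreated cells, 3 nuclear RNAs (Malat1, Neat1 and Kcnq1ot1) summed to 552 and 587 in chrRNP, against 159 and 149 in cyto. They summed to 1780 and 1618 in np and to 604 and 616 in wcl, so chrRNP lay below both as deposited. Gapdh, Actb and Rplp0 summed to 285 and 676 in chrRNP, against 2952 and 2710 in cyto, so the 2 untreated chrRNP libraries themselves differed in cytosolic messenger RNA. The part of such differences in the results below was not tested.

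Promoters of the members were rich in CG. RefSeq promoter sequences (build GRCm38.p6, 250 bases before to 50 after the start) were matched for 26 of the 33 genes, with a median of 62.5% G and C and 26.5 CpG, against 52.7% and 7 over all 27025 promoters. The GC box, GGGCGG on either strand, was in 16 of 26 (61.5%), and in 35.9% of all promoters. The ETS core CCGGAAG was in 8 of 26 (30.8%), and in 9.12% of all. CCAAT was in 11 of 26 (42.3%), and in 37.9% of all, and the NRF1 motif was in 2 of 26 (7.69%), and in 0.977% of all. The letters TATAAA were in 0 of 26, and in 14.2% of all. These matches describe letters, not binding. The shares are over all promoters, not only those of genes tested in ESC RNA, so a comparison with expressed genes was not made.

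The promoters shown are those of both CFII genes, Pcf11 and Clp1, which moved in opposite directions in RAD1 and RAD0, and of the CstF paralogues Cstf2 and Cstf2t, of which Cstf2t rose in the nuclear pellet. Capitals mark the GC box, the ETS core and CCAAT, each on either strand, and the first capital run of Pcf11 joins a CCAAT match on each strand. They lie at chr7:92669863-92670162 (minus strand), chr2:84727238-84727537 (minus), chrX:134058926-134059225 (plus) and chr19:31082591-31082890 (plus).
Pcf11: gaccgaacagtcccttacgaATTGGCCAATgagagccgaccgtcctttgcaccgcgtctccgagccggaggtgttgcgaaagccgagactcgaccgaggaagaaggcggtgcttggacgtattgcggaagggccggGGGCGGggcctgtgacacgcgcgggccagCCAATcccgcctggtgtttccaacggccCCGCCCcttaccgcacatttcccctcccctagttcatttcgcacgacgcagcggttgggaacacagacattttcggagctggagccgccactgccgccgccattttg
Clp1: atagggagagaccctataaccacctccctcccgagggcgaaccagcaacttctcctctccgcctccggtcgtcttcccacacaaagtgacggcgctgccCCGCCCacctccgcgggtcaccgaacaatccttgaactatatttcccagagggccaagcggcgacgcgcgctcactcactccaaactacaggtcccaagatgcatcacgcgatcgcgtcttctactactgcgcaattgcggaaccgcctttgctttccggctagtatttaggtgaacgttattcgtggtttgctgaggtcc
Cstf2: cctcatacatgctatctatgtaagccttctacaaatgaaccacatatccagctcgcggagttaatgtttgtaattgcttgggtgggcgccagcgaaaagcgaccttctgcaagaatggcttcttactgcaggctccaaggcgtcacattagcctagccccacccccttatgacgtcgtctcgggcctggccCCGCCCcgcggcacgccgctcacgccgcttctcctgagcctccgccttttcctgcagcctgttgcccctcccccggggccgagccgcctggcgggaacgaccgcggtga
Cstf2t: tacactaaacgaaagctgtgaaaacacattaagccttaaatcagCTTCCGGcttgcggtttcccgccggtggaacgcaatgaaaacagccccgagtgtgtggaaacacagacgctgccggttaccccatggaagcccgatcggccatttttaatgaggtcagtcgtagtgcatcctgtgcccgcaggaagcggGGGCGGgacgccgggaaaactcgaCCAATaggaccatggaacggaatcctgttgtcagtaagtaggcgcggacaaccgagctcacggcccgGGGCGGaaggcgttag

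Active chromatin marked nearly all of these starts at both times. H3K27ac peaks, given as the authors' lists of positions, lay within 500 bp of the start of 25 of the 26 members at 4 h of IAA, against 25 of 26 at 0 h. The same distance held a peak for 70.5% of the 8392 genes tested in ESC total RNA that have a strand in the tables at 4 h, against 69.9% at 0 h. The exception was Ints1 in the 4 h list and Ints4 in the 0 h list. Lists of positions carry no heights, so no change of the mark was tested.

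In untreated ESC total RNA the members spanned a wide range of levels. Papola, the main poly(A) polymerase, had 56.1 and 48.5 FPKM, and Cpsf6 had 47.6 and 43.6 FPKM. Rprd1a was lowest, with 2.56 and 2.35 FPKM, and Papolg, the second poly(A) polymerase, had 5.66 and 4.28 FPKM. Among CFII genes, Clp1 had 25.7 and 26.0 FPKM and Pcf11 had 19.3 and 17.2 FPKM.

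Nascent RNA of the members showed no called change. Of the 33 genes, 31 passed the filter (Ints1 and Rprd1b did not), and limma called 0 of 31 at 1 h, 0 at 2 h and 0 at 4 h, with 1, 1 and 3 at an unadjusted p under 0.05. Over all 8876 genes tested, 0.0451% were called at 1 h, 0.0113% at 2 h and 1.90% at 4 h. Median changes of the members were 0.10, -0.02 and -0.07, beside 0.03, 0.00 and -0.03 for all genes. Ints5, a backbone subunit, had the smallest p at 4 h, with 4.25 and 3.54 RPKM at 0 h, 4.92 and 4.37 at 1 h, 3.20 and 4.00 at 2 h and 1.34 and 1.95 at 4 h. Its 4 h libraries lay below its 0 h libraries, a change of -0.89 ± 0.17 (SE of the fit, n = 2 each) with an adjusted p of 0.0788. Papola had 7.80 and 7.58 RPKM at 4 h, against 5.68 and 5.51 RPKM at 0 h, a change of 0.40 ± 0.09 (adjusted p = 0.118). Nascent Pcf11 had 6.10 and 5.70 RPKM at 4 h, against 6.07 and 4.89 RPKM at 0 h, and these libraries overlapped.

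**Figure D1:**
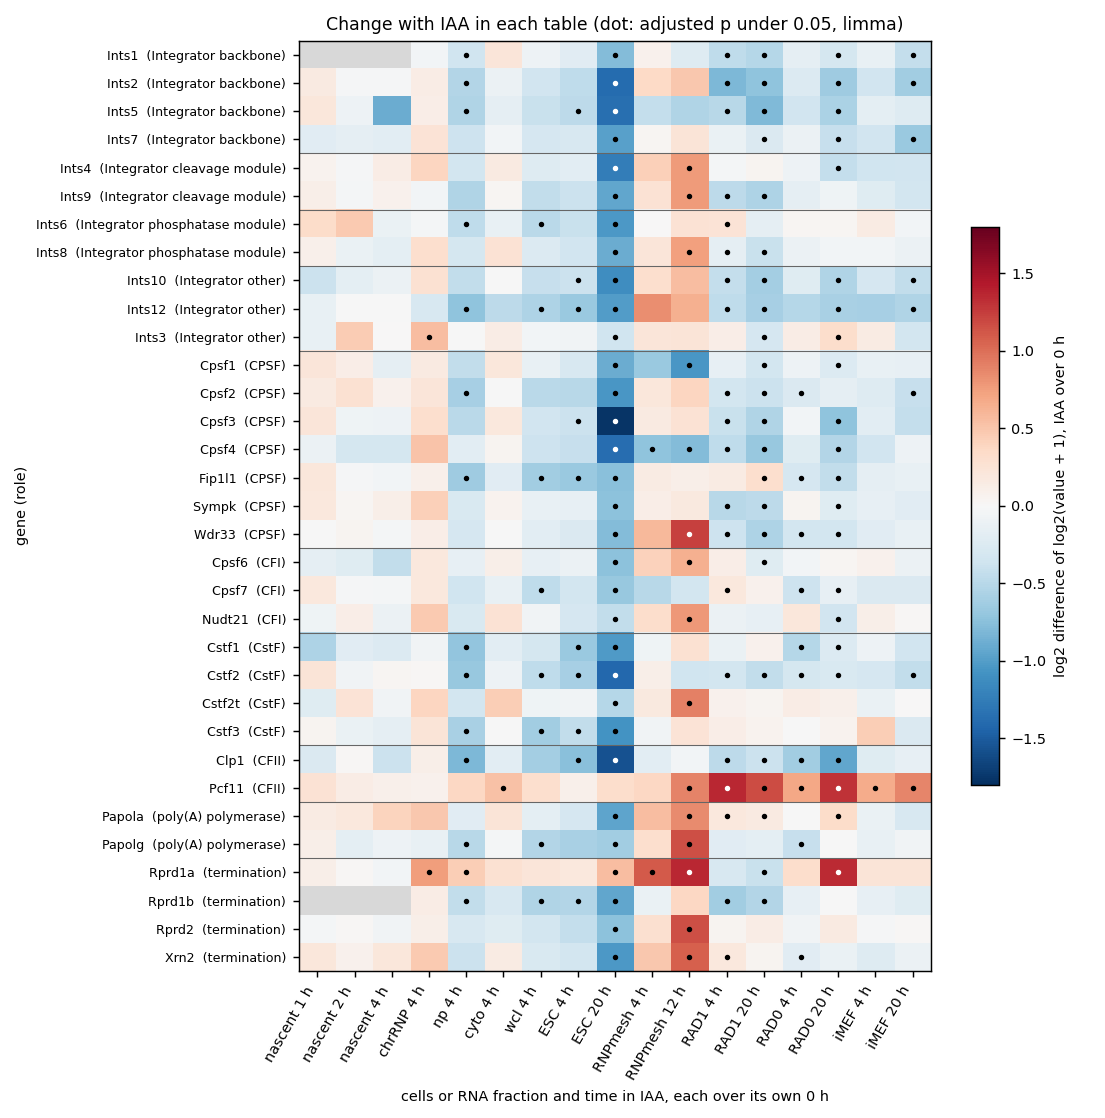
Log2 change with IAA over 0 h for the 33 genes (rows, grouped by role) in 17 comparisons (columns, time in hours); red is higher and blue lower than at 0 h, grey was not tested, and a dot marks an adjusted p under 0.05 in limma. The ESC 20 h column is blue for 31 genes, and in the RAD0 20 h column Pcf11 is red (1.30) while its complex partner Clp1 is blue (-0.94).

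Steady-state messenger RNA of both complexes fell in ESC total RNA by 20 h as deposited, as that of most genes did. After rescaling, most members were not called lower. In such bulk samples, fewer cells of a type and less RNA per cell cannot be told apart. FPKM is relative within a library, so it measures neither, and other RNAs of the library can also move it. Gm26917 took the largest single share of both 20 h libraries, and Rn7sk that of both 0 h libraries. The part of library composition in the falls was not tested. As deposited, 31 of 33 members fell and 1 rose at 20 h, where 67.8% of the 12461 genes tested fell and 9.47% rose. All 11 Integrator genes and 20 of the 22 others fell. Their median change was -0.94, beside -0.76 for all genes. With rescaled libraries, 6 members rose and 8 fell, where 27.5% of all genes rose and 27.8% fell, with a median of -0.07. At 4 h, 10 members fell and 0 rose, where 21.2% of all genes fell and 4.47% rose, and with rescaled libraries 3 rose and 0 fell, where 5.95% rose and 2.05% fell. The count at 4 h was 0 without replicate 1 or replicate 2 at 0 h or replicate 1 at 4 h, and 19 without replicate 2 at 4 h. At 20 h relative to 4 h, 26 members fell and 0 rose, where 48.6% of all genes fell and 7.86% rose, and after rescaling 6 fell and 6 rose, where 25.9% fell and 24.9% rose. As deposited, that count was 16 without replicate 1 and 15 without replicate 2 at 20 h. In the same libraries the 5 ESC markers summed to 271 and 250 FPKM at 20 h, against 874 and 809 at 0 h, and 3 trophoblast markers (Cdx2, Krt18 and Hand1) to 55.8 and 56.5 at 20 h, against 9.53 and 8.57 at 0 h. All 3 had a mean of at least 1 at 20 h. That list also summed to 42.2 and 37.1 FPKM in untreated iMEFs, where Cdx2 and Hand1 were at 0, so Krt18 alone can make such a sum.

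Of the 11 Integrator genes, 4 stayed lower after rescaling (Ints2, Ints4, Ints5 and Ints10) and Ints3 turned to a rise. Ints2 had 13.4 and 12.3 FPKM at 0 h, 8.02 and 10.3 at 4 h and 4.70 and 3.90 at 20 h. Ints2 fell at 20 h by 1.39 ± 0.15 as deposited (SE of the fit, n = 2 each, adjusted p = 0.000300) and by 0.55 after rescaling. Ints5 fell by 1.36 ± 0.13, Ints4 of the cleavage module by 1.25 ± 0.12 and Ints10 by 1.11 ± 0.11, and all 3 stayed called after rescaling. Ints9, the partner of the Integrator endonuclease, had 5.54 and 6.04 FPKM at 20 h, against 12.3 and 11.6 FPKM at 0 h, a fall of 0.93 ± 0.12 that rescaling brought to -0.07. Ints1 fell by 0.78 ± 0.13, which became 0.11 after rescaling, not called. Ints3, which also belongs to a single-stranded DNA binding complex, fell least among Integrator genes, by 0.36 ± 0.14 (adjusted p = 0.0490), and rose by 0.55 after rescaling (adjusted p = 0.00125).

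Among cleavage and polyadenylation genes the endonuclease itself fell most. Cpsf3 had 21.8 and 22.7 FPKM at 0 h, 16.1 and 17.7 at 4 h and 5.85 and 5.78 at 20 h, and the 3 times did not overlap. Its fall at 20 h was 1.77 ± 0.11 as deposited (adjusted p = 8.31e-05) and 0.90 after rescaling (adjusted p = 0.000559). Clp1 fell by 1.56 ± 0.14, Cstf2 by 1.41 ± 0.13 and Cpsf4 by 1.37 ± 0.14, and these stayed called after rescaling with falls of 0.67, 0.54 and 0.46. Cpsf1, the scaffold of CPSF, fell by 0.89 ± 0.14, which rescaling brought to 0.00. Xrn2 fell by 1.04 ± 0.12 and Papola by 0.95 ± 0.15, which became -0.11 and -0.01. Nudt21 fell by 0.44 ± 0.11 as deposited but rose by 0.38 after rescaling (adjusted p = 0.0186), and Cpsf6 and Cstf2t likewise turned to called rises of 0.20 and 0.36.

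By contrast, Pcf11 and Rprd1a stood at higher levels at 20 h than at 0 h. Pcf11 had 19.3 and 17.2 FPKM at 0 h, 16.9 and 22.4 at 4 h and 24.4 and 21.6 at 20 h. Both 20 h libraries lay above both 0 h libraries, but the change of 0.32 ± 0.16 was not called as deposited (adjusted p = 0.112) and was 1.24 after rescaling (adjusted p = 0.000277). Rprd1a had 2.56 and 2.35 FPKM at 0 h, 2.66 and 3.26 at 4 h and 4.12 and 3.99 at 20 h. It rose at 20 h by 0.55 ± 0.13 (adjusted p = 0.00666) and by 1.29 after rescaling.

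**Figure D2:**
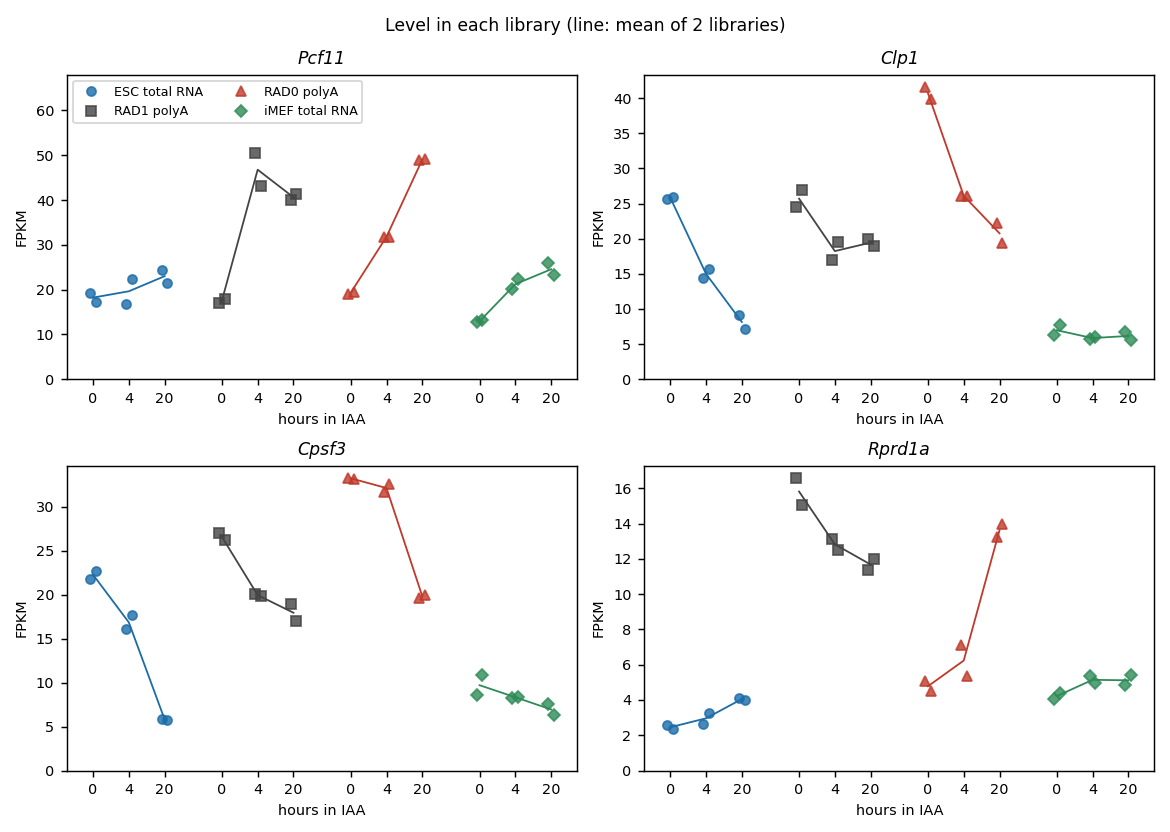
FPKM of Pcf11, Clp1, Cpsf3 and Rprd1a in each library (points) at 0, 4 and 20 h of IAA in ESC total RNA, RAD1 and RAD0 polyadenylated RNA and iMEF total RNA; lines join means of 2 libraries. Pcf11 reached 48.9 and 49.2 FPKM in RAD0 at 20 h, while Clp1 and Cpsf3 were lower at 20 h than at 0 h in ESCs, RAD1 and RAD0.

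Before IAA, messenger RNA of nearly all members was lower in the chromatin fraction than in the cytosol as deposited, but not after rescaling. Pcf11 was higher in the chromatin fraction under both scalings. As deposited, 29 members were lower and 1 was higher in chrRNP than in cyto, where 63.4% of 14069 genes were lower and 14.3% higher. Their median difference was -1.25, beside -0.88 for all genes. After rescaling, 10 were lower and 12 higher, where 32.9% were lower and 37.4% higher, with a median of 0.09 beside 0.05 for all genes. Pcf11 had 22.5 and 21.4 FPKM in chrRNP, against 8.96 and 8.30 FPKM in cyto, a difference of 1.25 ± 0.13 (adjusted p = 8.38e-06) and of 2.63 after rescaling. Clp1 had 4.91 and 10.1 FPKM in chrRNP, against 36.9 and 34.4 FPKM in cyto, a difference of -2.18 ± 0.24 (adjusted p = 1.02e-05) and of -0.85 after rescaling. The partners of CFII thus lay at opposite ends of the members' range. Cpsf4 (-2.05), Cpsf3 (-1.82), Sympk, the CPSF scaffold symplekin (-1.81), and Rprd1b (-1.69) followed Clp1 and also stayed lower after rescaling.

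Ints12, Ints1 and Papolg were not called as deposited (0.13, -0.07 and -0.11) and were higher in chrRNP after rescaling (1.37, 1.29 and 1.10). Under both scalings they stood between Pcf11 and the other members. In the soluble nucleoplasm, 6 members were higher and 6 lower than in cyto, where 28.0% of all genes were higher and 33.8% lower, and after rescaling 15 were higher and 6 lower, where 32.7% were higher and 29.0% lower. Pcf11 had 22.7 and 22.1 FPKM in np, a difference of 1.28 ± 0.13 from cyto (adjusted p = 1.24e-05). Ints1 followed with 26.2 and 28.2 FPKM in np, against 13.3 and 12.1 FPKM in cyto (1.04 ± 0.11), and then Ints12 (0.91), Cstf2 (0.59), Ints2 (0.57) and Papolg (0.54). Rprd1b (-0.94), Nudt21 (-0.85), Ints5 (-0.69) and Clp1 (-0.69) were the lowest in np. All 10 of these kept their direction and call after rescaling.

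**Figure D3:**
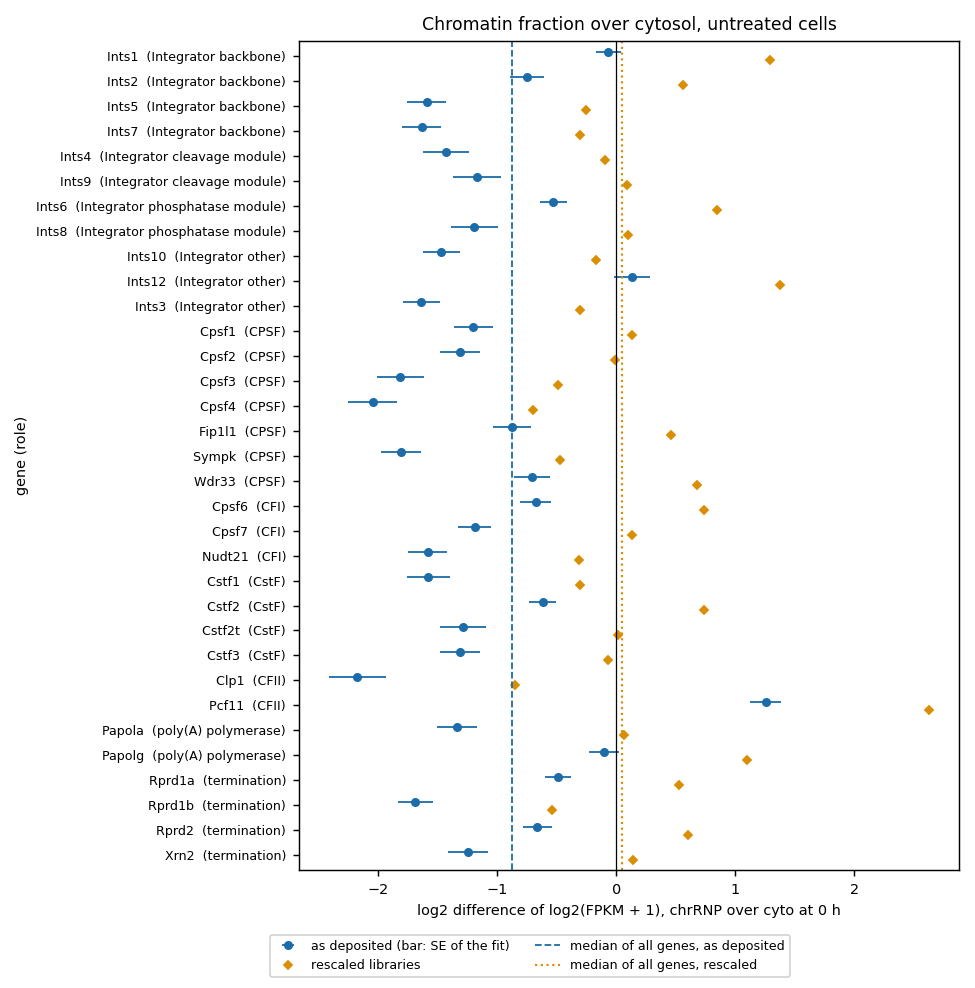
Log2 difference between the chromatin fraction and the cytosol of untreated ESCs for each member (rows), as deposited (circles, with the SE of the fit) and rescaled (diamonds), with the medians of all genes as vertical lines. Pcf11 lies far right under both scalings, at 1.25 and 2.63, and Clp1 far left, at -2.18 and -0.85.

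After 4 h of IAA the fractions moved in different directions as deposited. In np, 13 members fell and 1 rose, where 23.4% of all genes fell and 7.43% rose, and in wcl 8 fell and 0 rose, where 13.5% fell and 5.74% rose. In chrRNP, 2 rose and 0 fell, where 7.95% rose and 0.867% fell, and in cyto 1 rose and 0 fell, where 5.04% rose and 1.41% fell. Medians of the members were 0.19 in chrRNP, -0.39 in np, -0.00 in cyto and -0.33 in wcl, beside 0.21, -0.29, 0.04 and -0.23 for all genes. With rescaled libraries, chrRNP had 1 rise and 3 falls, where 8.71% of all genes rose and 8.31% fell, and np had 2 rises and 8 falls, where 8.72% rose and 8.05% fell. Likewise cyto had 1 rise and 1 fall, where 4.04% rose and 2.49% fell, and wcl had 1 rise and 3 falls, where 6.74% rose and 3.61% fell. The difference between the IAA change in chrRNP and that in cyto was called for 0 members, and for 0.135% of all genes, and that between np and cyto for 0 members, and for 1.00% of all genes. At an unadjusted p under 0.05 limma gave 2 and 10 members for these differences.

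Clp1 fell most in np, with 11.6 and 12.3 FPKM at 4 h, against 19.7 and 23.9 FPKM at 0 h (-0.81 ± 0.24, adjusted p = 0.0275). Ints12 (-0.73), Cstf1 (-0.71) and Cstf2 (-0.68) followed, and Cstf1 and Cstf2 stayed called after rescaling, while Ints12 did not (-0.49). Of the 4 CstF genes 3 fell in np, beside 2 of 7 for CPSF and 0 of 3 for CFI. Rprd1a rose in both nuclear fractions. It had 3.31 and 3.61 FPKM in chrRNP at 4 h, against 1.41 and 1.90 FPKM at 0 h, a rise of 0.75 ± 0.11 (adjusted p = 0.00162), and rose in np by 0.45 ± 0.11 (adjusted p = 0.0129). Both rises stayed called after rescaling. The rise in np was not called without replicate 1 or replicate 2 at 0 h or without replicate 2 at 4 h. Ints3 rose in chrRNP by 0.56 ± 0.16 (adjusted p = 0.0498), which was not called after rescaling. Pcf11 was the riser in cyto, with 12.1 and 13.7 FPKM at 4 h, against 8.96 and 8.30 FPKM at 0 h (0.53 ± 0.13, adjusted p = 0.0396), which was not called after rescaling (0.46).

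These counts rested on single libraries. Without replicate 2 of untreated chrRNP, the library with more cytosolic messenger RNA, 18 members were called in chrRNP and 8 for the chrRNP change minus the cyto change, and without replicate 1 at 0 h or at 4 h 1 was called in chrRNP. In np the count was 4 without replicate 1 at 0 h and 3 when any other library was left out, in cyto it was 0 whichever library was left out, and in wcl it was 1 without replicate 1 at either time and 0 without replicate 2 at either time.

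In the insoluble nuclear pellet the polyadenylated RNA of members rose more often than that of all genes, though most members were not called higher as deposited. As deposited, 13 members rose, 2 fell and 18 were not called in RNPmesh at 12 h, where 16.3% of 12725 genes rose and 31.6% fell. Their median was 0.38, beside -0.23 for all genes. In the same libraries the 3 nuclear RNAs summed to 18372 and 12152 FPKM at 12 h, against 3711 and 4277 FPKM at 0 h, and the 5 ESC markers to 483 and 478 FPKM at 12 h, against 675 and 695 FPKM at 0 h. The 5 fibroblast markers, with Col1a2 listed at 0 at both times, summed to 762 and 643 FPKM at 12 h, against 1265 and 902 FPKM at 0 h, and the part of these changes in the members' values was not tested. With rescaled libraries 21 rose and 1 fell, where 24.5% rose and 23.6% fell, and the median was 0.63. At 4 h 1 rose and 1 fell as deposited, where 5.49% rose and 19.1% fell, and 10 rose and 0 fell after rescaling, where 11.9% rose and 9.06% fell. The count at 12 h was 9 without replicate 2 at 0 h, in which Snord49b took the share given above. At 4 h it was 1 without that library and 0 without either 4 h library.

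Of the termination factors 3 of 4 rose at 12 h as deposited, and of the poly(A) polymerases 2 of 2, where 16.3% of all genes rose. Of the Integrator backbone 0 of 4 rose, and of the Integrator genes outside its named modules 0 of 3. Of CPSF 1 of 7 rose and 2 fell. Rprd1a had 4.48 and 4.97 FPKM at 0 h, 10.4 and 12.4 at 4 h and 13.9 and 13.4 at 12 h, and both later times lay above 0 h. It rose by 1.11 ± 0.19 at 4 h (adjusted p = 0.00688, not called without either 4 h library) and by 1.36 ± 0.19 at 12 h (adjusted p = 0.000756). Wdr33, the CPSF subunit that contacts the poly(A) signal, had 7.86 and 8.09 FPKM at 0 h, 10.8 and 14.4 at 4 h and 21.3 and 18.8 at 12 h, a rise of 1.23 ± 0.21 at 12 h (adjusted p = 0.00181). Papolg rose by 1.16 ± 0.20, Rprd2 by 1.16 ± 0.19 and Xrn2 by 1.08 ± 0.20. Both members from the Integrator cleavage module rose, Ints9 by 0.77 ± 0.21 and Ints4 by 0.76 ± 0.21, as did Ints8 (0.74), Nudt21 (0.78) and Cpsf6 (0.64). Ints11, the endonuclease of that module but not a member, fell there under both scalings, as given below. Pcf11 had 15.7 and 17.1 FPKM at 0 h, 20.4 and 22.7 at 4 h and 30.5 and 31.7 at 12 h, a rise of 0.89 ± 0.19 at 12 h (adjusted p = 0.00562). Clp1 had 10.8 and 9.31 FPKM at 12 h, against 11.4 and 9.42 FPKM at 0 h, and these libraries overlapped.

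CPSF divided. Cpsf1 had 106 and 121 FPKM at 0 h, 66.7 and 76.2 at 4 h and 64.7 and 45.4 at 12 h, a fall of 1.05 ± 0.24 at 12 h (adjusted p = 0.00751) that stayed called after rescaling. Cpsf4, the zinc finger subunit, fell by 0.78 ± 0.22 (adjusted p = 0.0178), which was not called after rescaling. Cpsf2, Cpsf3, Sympk and Fip1l1 had changes of 0.38, 0.26, 0.17 and 0.10 that were not called as deposited, and of these Cpsf2 (0.63) and Cpsf3 (0.52) were called after rescaling.

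**Figure D4:**
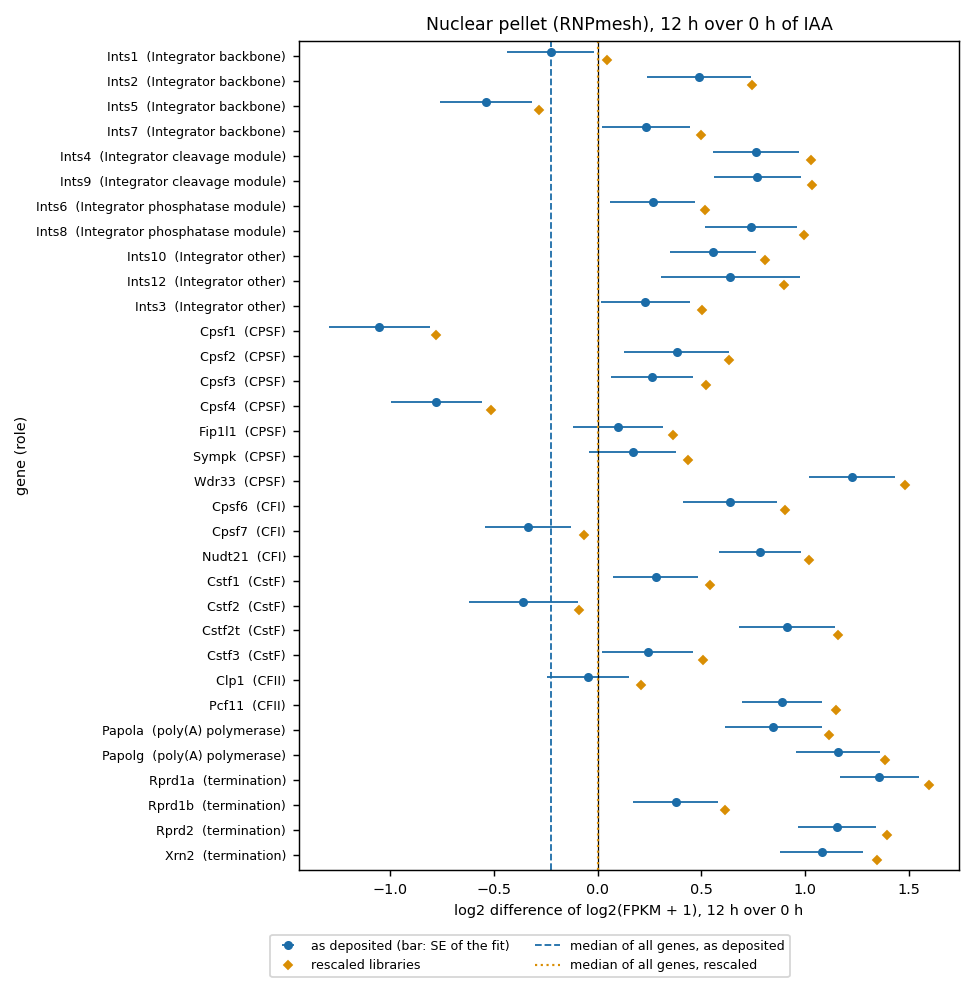
Log2 change in the nuclear pellet (RNPmesh) at 12 h over 0 h of IAA for each member (rows), as deposited (circles, with the SE of the fit) and rescaled (diamonds), with the medians of all genes as vertical lines. Rprd1a lies at 1.36 and Wdr33 at 1.23 as deposited, and Cpsf1 at -1.05 and Cpsf4 at -0.78.

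In polyadenylated RNA of whole cells, Pcf11 rose at both times in RAD1 and in RAD0. At 20 h, 9 of 11 Integrator and 6 of 7 CPSF genes fell in RAD1, and 7 of 11 and 6 of 7 fell in RAD0. After rescaling these were 8 of 11 and 6 of 7 in RAD1, and 6 of 11 and 3 of 7 in RAD0. In RAD1 cells at 20 h, 20 members fell and 3 rose, where 33.8% of 15408 genes fell and 23.1% rose, and after rescaling 17 fell and 8 rose, where 28.1% fell and 26.9% rose. In RAD0 cells at 20 h, 18 fell and 4 rose, where 51.4% of all genes were called and 18.4% rose, and after rescaling 10 fell and 8 rose, where 24.8% fell and 23.9% rose. At 4 h, 15 fell and 5 rose in RAD1, where 32.7% fell and 18.1% rose, and 9 fell and 1 rose in RAD0, where 13.5% fell and 5.26% rose. After rescaling these were 10 falls and 9 rises in RAD1, where 24.8% fell and 22.5% rose, and 3 falls and 1 rise in RAD0, where 4.46% fell and 6.04% rose. Medians of the members at 20 h were -0.33 in RAD1 and -0.21 in RAD0, beside -0.11 and -0.13 for all genes. The 3 nuclear RNAs summed to 1713 and 1656 FPKM at 20 h, against 246 and 276 FPKM at 0 h, in RAD1, and to 2163 and 2184 FPKM at 20 h, against 319.5 and 266 FPKM at 0 h, in RAD0. The 3 trophoblast markers summed to 39.9 and 35.3 FPKM at 20 h, against 7.92 and 8.54 FPKM at 0 h, in RAD1, and to 5.87 and 7.43 FPKM at 20 h, against 1.73 and 1.47 FPKM at 0 h, in RAD0. The 5 ESC markers summed to 387 and 403 FPKM at 20 h, against 505 and 495 FPKM at 0 h, in RAD1, and to 895 and 903 FPKM at 20 h, against 1319 and 1365 FPKM at 0 h, in RAD0, and the part of these shifts in the counts was not tested. The RAD1 count at 4 h was 13 without replicate 1 at 0 h, that of RAD0 at 4 h was 4 or 5 whichever library was left out, and that of RAD0 at 20 h was 14 without replicate 1 at 20 h.

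Pcf11 had 17.1 and 17.9 FPKM at 0 h, 50.5 and 43.0 at 4 h and 40.0 and 41.3 at 20 h in RAD1, with rises of 1.36 ± 0.07 and 1.17 ± 0.07 (adjusted p = 1.79e-06 and 1.96e-06). In RAD0 it had 19.1 and 19.5 FPKM at 0 h, 31.8 and 31.8 at 4 h and 48.9 and 49.2 at 20 h. The 3 times did not overlap in RAD0, and the rises were 0.69 ± 0.07 at 4 h (adjusted p = 0.000563) and 1.30 ± 0.07 at 20 h (adjusted p = 1.89e-06). All 4 rises stayed called after rescaling and whichever library was left out. Clp1 fell in RAD1 by 0.38 ± 0.09 at 20 h (adjusted p = 0.00521). In RAD0 it had 41.6 and 39.9 FPKM at 0 h, 26.1 and 26.1 at 4 h and 22.2 and 19.3 at 20 h, a fall of 0.94 ± 0.09 at 20 h (adjusted p = 4.00e-05). Both falls of Clp1 stayed called after rescaling.

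Falls in RAD1 at 20 h were led by Ints5 (-0.79 ± 0.15), Ints2 (-0.72 ± 0.08), Cpsf4 (-0.68 ± 0.11) and Ints10 (-0.61 ± 0.07), and all stayed called after rescaling. In RAD0 they were led, after Clp1, by Cpsf3 (-0.72 ± 0.06), Ints2 (-0.64 ± 0.08) and Ints12 (-0.58 ± 0.16), which also stayed called. All 4 backbone genes of Integrator fell at 20 h in RAD1 and in RAD0, and the call of Ints1 in RAD0 was lost after rescaling (-0.16). Papola rose at 20 h in both, by 0.16 ± 0.04 in RAD1 and by 0.33 ± 0.04 in RAD0, with 102 and 101 FPKM in RAD1 at 20 h, against 91.0 and 90.1 at 0 h. Fip1l1, which tethers the polymerase to CPSF, rose in RAD1 by 0.31 ± 0.08 and fell in RAD0 by 0.44 ± 0.08.

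In cells without IAA, 14 members differed between RAD1, given retinoic acid without LIF, and RAD0. Of these 6 were higher and 8 lower in RAD1 than in RAD0, where 27.7% of all genes were higher and 19.0% lower, and after rescaling 2 were higher and 12 lower, where 22.9% were higher and 23.8% lower. Rprd1a had 16.6 and 15.1 FPKM in RAD1, against 5.08 and 4.48 FPKM in RAD0, a difference of 1.54 ± 0.12 (adjusted p = 1.37e-05). Clp1 was lower, with 24.5 and 26.9 FPKM in RAD1, against 41.6 and 39.9 FPKM in RAD0 (-0.65 ± 0.09, adjusted p = 0.000401). Rprd1b (0.39), Ints8 (0.29), Rprd2 (0.28), Sympk (0.27) and Cstf3 (0.22) were also higher as deposited, and of these only Ints8 stayed called after rescaling. Cstf1 (-0.50), Xrn2 (-0.42) and Fip1l1 (-0.36) were lower under both scalings. Pcf11 had 17.1 and 17.9 FPKM in RAD1, against 19.1 and 19.5 FPKM in RAD0, a difference of -0.13 ± 0.07 that was not called as deposited (adjusted p = 0.162) and was called after rescaling (-0.23, adjusted p = 0.0285).

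The response to IAA differed between RAD1 and RAD0 for 10 members at 4 h, where 27.2% of all genes differed, and for 11 at 20 h, where 25.6% did. After rescaling, 10 differed at 4 h, where 26.7% did, and 11 at 20 h, where 24.9% did. Without replicate 2 of RAD1 at 4 h, 6 differed at 4 h, and at 20 h 7 differed without replicate 1 of RAD1 at 20 h or replicate 2 of RAD0 at 0 or 20 h. Rprd1a was furthest apart at 20 h. It had 11.4 and 12.0 FPKM in RAD1 at 20 h, below its 0 h values, against 13.2 and 14.0 FPKM in RAD0 at 20 h, above its 0 h values. Its change was -0.41 ± 0.12 in RAD1, which was not called after rescaling (-0.29), against 1.34 ± 0.12 in RAD0, and the difference of the changes was -1.75 ± 0.16 (adjusted p = 0.000203). Pcf11 rose further in RAD1 than in RAD0 at 4 h, by 0.67 ± 0.10 (adjusted p = 0.00177), and at 20 h the difference was -0.13 ± 0.10 (adjusted p = 0.368). For Fip1l1 the change was higher in RAD1 at 4 h (0.44 ± 0.12) and at 20 h (0.75 ± 0.12), and for Cpsf7 likewise (0.56 ± 0.07 and 0.22 ± 0.07, the value at 20 h not being called after rescaling).

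In fibroblasts Pcf11 was the member that rose. It had 12.7 and 13.1 FPKM at 0 h, 20.1 and 22.3 at 4 h and 25.9 and 23.2 at 20 h, and neither later time overlapped 0 h. It rose by 0.67 ± 0.10 at 4 h (adjusted p = 0.0312), the single member called at that time, where 1.63% of 12988 genes were called, and that call was lost whichever library was left out. It rose by 0.87 ± 0.10 at 20 h (adjusted p = 0.00236). At 20 h 7 members fell, where 22.2% of all genes fell and 5.21% rose. The falls were those of Ints7 (-0.66 ± 0.12), Ints2 (-0.62 ± 0.12), Ints12 (-0.55 ± 0.10), Cstf2 (-0.45), Ints10 (-0.44), Ints1 (-0.43) and Cpsf2 (-0.42), of which those of Cstf2 and Ints10 were not called after rescaling. After rescaling 3 rose and 5 fell at 20 h, where 13.2% rose and 13.5% fell, and 3 rose and 1 fell at 4 h, where 2.64% rose and 0.300% fell. The count at 20 h was 2 and 1 without replicate 1 and replicate 2 at 0 h, and 15 and 4 without replicate 1 and replicate 2 at 20 h. Rprd1a changed by 0.23 ± 0.10 at 20 h, which was called after rescaling (0.42, adjusted p = 0.0449), and Clp1 by -0.15, which was not called under either scaling.

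Reads at the end of Pcf11 may not belong to it alone. The gene lies at chr7:92643543-92669934 on the minus strand (mm10). Gm26944, an antisense RNA at chr7:92639739-92647442, shares 3900 bases with its 3′ end, and 6430511E19Rik, a transcript awaiting curation at chr7:92639949-92643783, shares 241. The libraries kept strand, but the sources used here do not say whether the counting used it, so reads of these genes and Pcf11 cannot be told apart. Gm26944 had 1.27 and 0.436 FPKM at 0 h, 7.67 and 3.85 at 4 h and 8.41 and 6.93 at 20 h in ESC total RNA, a rise of 2.26 ± 0.32 at 20 h (adjusted p = 0.000834). 6430511E19Rik had 3.14 and 3.04 FPKM at 0 h, 13.6 and 16.1 at 4 h and 11.6 and 10.8 at 20 h, a rise of 1.58 ± 0.12. In RAD0 at 20 h they rose by 2.75 ± 0.35 and 2.54 ± 0.18, to 11.7 and 12.2 FPKM and to 8.06 and 9.80 FPKM, against 48.9 and 49.2 FPKM for Pcf11. In untreated chrRNP they exceeded cyto by 1.53 ± 0.31 and 2.28 ± 0.11, with 1.91 and 2.50 FPKM and with 8.14 and 7.51 FPKM in chrRNP, against 0 and 0.219 FPKM and 0.976 and 0.665 FPKM in cyto. Where Pcf11 rose, both neighbours also rose in RNPmesh at 12 h (Gm26944 2.39, 6430511E19Rik 2.51) and in iMEFs at 20 h (1.14 and 1.36). They did so too in RAD1 at 4 h (1.91 and 1.44) and at 20 h (1.51 and 1.62). In cyto, RAD0 and iMEFs at 4 h, 6430511E19Rik rose (1.39, 1.53 and 1.17) and Gm26944 was not called (0.63, 1.01 and 1.33). In other comparisons the neighbours were higher while Pcf11 itself had no called change. Nascent Gm26944 had 7.48 and 10.8 RPKM at 4 h, against 2.92 and 2.81 RPKM at 0 h (1.37 ± 0.20, adjusted p = 0.0416), and nascent 6430511E19Rik had 6.83 and 12.5 RPKM at 4 h, against 2.78 and 2.34 RPKM at 0 h (1.53 ± 0.29, adjusted p = 0.0743), while Pcf11 changed by 0.10. In np at 4 h they rose by 2.65 ± 0.31 and 2.56 ± 0.11, and Pcf11 changed by 0.38 ± 0.13 (adjusted p = 0.0531), which was called after rescaling (0.65, adjusted p = 0.0396). In chrRNP at 4 h they rose by 1.76 ± 0.31 and 1.79 ± 0.11, and Pcf11 changed by 0.08 ± 0.13. Their part in the values of Pcf11 was not tested. Of the 33 members, 21 overlap another gene of the tables, 11 of them a protein-coding one, among them Cstf2t, which lies within Prkg1, Ints8, which overlaps Ccne2, and Rprd1b, which overlaps Tgm2.

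Paralogues of the same complex moved unequally. Cstf2, the RNA-binding subunit of CstF, had 20.7 and 20.2 FPKM in RNPmesh at 12 h, against 34.4 and 20.3 FPKM at 0 h (-0.36, adjusted p = 0.291). Its autosomal paralogue Cstf2t had 10.3 and 12.7 FPKM at 12 h, against 6.81 and 4.59 FPKM at 0 h, and rose by 0.91 ± 0.23 (adjusted p = 0.0116). In ESC total RNA at 20 h Cstf2 fell by 1.41 and Cstf2t by 0.51, and in RAD0 at 20 h Cstf2 fell by 0.28, a call lost after rescaling, while Cstf2t changed by 0.09, not called. After rescaling, Cstf2t rose in ESC total RNA at 20 h (0.36). Reads that match both paralogues could have been split between them by the authors' counting. Papola and Papolg both rose in RNPmesh at 12 h (0.85 and 1.16). In RAD0 at 4 h Papolg fell by 0.41 ± 0.08, a call lost after rescaling (adjusted p = 0.0583), and Papola changed by -0.01. Within CFI, Cpsf6 rose in RNPmesh at 12 h by 0.64 and Cpsf7 changed by -0.33, not called. Rprd1a rose and Rprd1b fell in ESC total RNA at 20 h (0.55 and -0.94). Under rescaling Rprd1b was not called there (-0.14). Differences between paralogues were not themselves tested.

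The mean sucrose fraction number of the members was higher at 12 h than at 0 h, as that of most genes was. The labels do not say whether fractions are numbered from the top. The mean fraction, weighted by FPKM over F2 to F9, was higher at 12 h than at 0 h for 33 of 33 members, and for 96.6% of the 8845 genes with summed FPKM of at least 20 at both times. With 1 library per fraction there is no replicate check. FPKM is scaled within each library, so neither these weighted means nor sums over fractions measure amounts of RNA. The members' median was 5.44 at 12 h, against 4.97 at 0 h, and their median shift was 0.43, beside 0.45 for all genes. Ints12 shifted most, to 4.98 at 12 h, against 4.25 at 0 h, and then Papola, to 5.70, against 5.01. Cpsf6 and Pcf11 shifted least, by 0.02 and 0.15, and turned to -0.01 and -0.05 when each fraction was scaled to the same total. Pcf11 already had the highest mean fraction of the 33 at 0 h, 5.82, and reached 5.97 at 12 h. Its FPKM summed over fractions was 240.6 at 12 h, against 135.0 at 0 h, with 51.4 against 18.4 in F7.

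**Figure D5:**
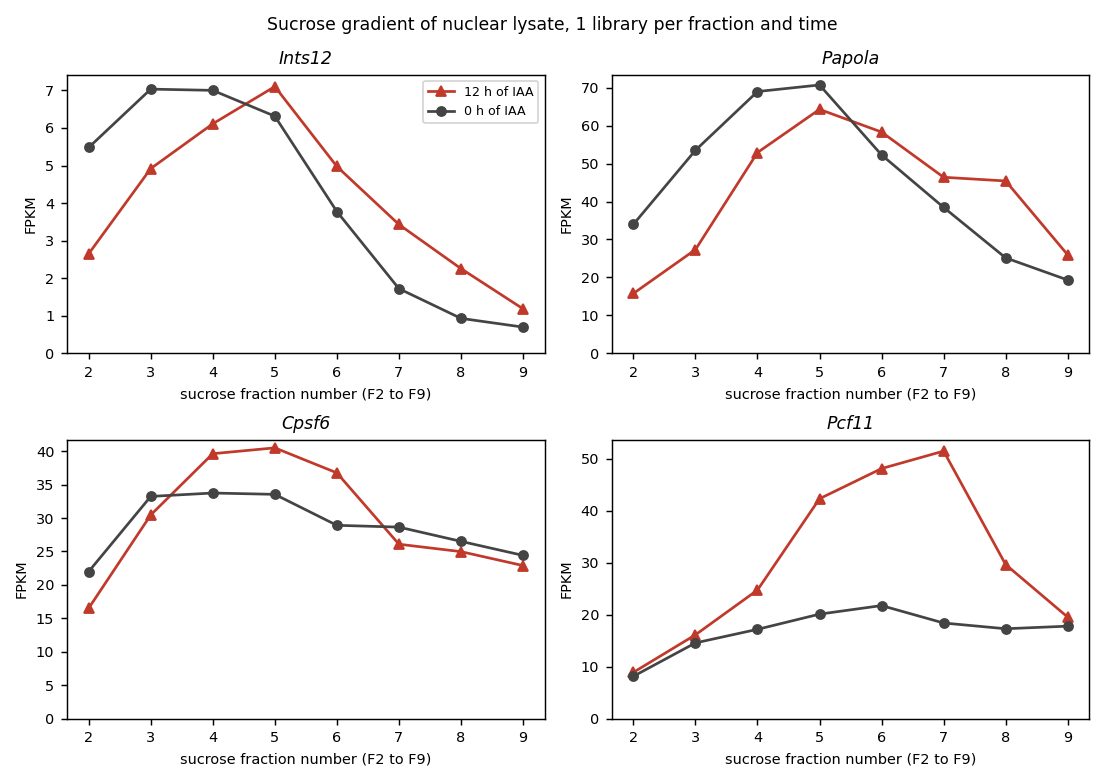
FPKM of Ints12, Papola, Cpsf6 and Pcf11 (panels) in sucrose fractions F2 to F9 of nuclear lysate at 12 h (triangles) and 0 h (circles) of IAA, with 1 library per point. Pcf11 reached 51.4 FPKM in F7 at 12 h, against 18.4 at 0 h, while Ints12 had 2.65 FPKM in F2 at 12 h, against 5.48 at 0 h.

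Other genes of the pathway were counted in the same way. Of 24 further genes (other Integrator subunits, cap-binding and histone 3′ end factors, phosphatases and termination factors), 21 fell and 0 rose in ESC total RNA at 20 h, and after rescaling 8 fell and 6 rose. Ints11, the Integrator endonuclease, fell under both scalings, as deposited by 1.54 in ESC total RNA at 20 h (adjusted p = 0.000177), by 1.48 in RNPmesh at 12 h (adjusted p = 0.000595), by 1.17 in RAD1 and by 0.89 in RAD0 at 20 h. Slbp, which binds the histone messenger RNA stem-loop, fell by 1.70 in ESCs at 20 h. In RNPmesh at 12 h 4 of the 24 rose and 5 fell, and after rescaling 8 rose and 3 fell. Srrt, the ARS2 partner of the cap-binding complex, fell there by 1.22 and rose in RAD0 at 20 h by 0.65. In RAD1 at 20 h 4 rose and 8 fell, and after rescaling 7 rose and 5 fell. In RAD0 at 20 h 6 rose and 10 fell, and after rescaling 9 rose and 8 fell. In iMEFs at 20 h 2 rose and 5 fell of 23 tested, and after rescaling 4 rose and 3 fell. In untreated chrRNP 21 were lower and 3 higher than in cyto, and after rescaling 13 were lower and 7 higher. The shares of all genes called in these comparisons are those given with the members' counts. As deposited, Rbbp6, a cleavage factor subunit, was highest among the 24 in untreated chrRNP over cyto at 1.01, beside 1.25 for Pcf11.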

How the data were processed

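The authors deposited FPKM per gene for total, fractionated, nuclear pellet, retinoic acid, fibroblast and sucrose libraries, for which the submitters' processing notes list TopHat2 2.0.11, Cufflinks 2.0.2 and the build mm10, without their role. Nascent RNA was deposited by the authors as RPKM per gene, and H3K27ac as MACS2 peak positions after Bowtie2 2.2.6, per the same notes. Spike-in RNA was added to several sample kinds, per the labels; the sources used here do not say whether the deposited values use it or whether counting used strand.

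Each of the 7 tables lists 52885 genes, and 70 of 139 libraries were used. Genes at 1 or more in at least 2 libraries of a table were tested on log2(value + 1) with limma 3.58.1 (R 4.3.3, group means, variance trend), with Benjamini-Hochberg adjustment over all genes tested, in 25 comparisons. The fit was tested on simulated data. Sucrose fractions, with 1 library each, were summarised as a weighted mean fraction for genes with a summed FPKM of at least 20, and peaks were matched within 500 bp of a gene start. Alternatives were a pseudocount of 0.1, no filter, libraries rescaled by the median ratio, a replicate block, no trend, each library left out, other sucrose settings and other peak distances.

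The members and lists were chosen with earlier results of these data known. Named are the 4 largest rises and falls among members called in a comparison, or the 2 of smallest p where none was called, members that represent each role (Ints1, Ints9, Cpsf1, Cpsf3, Cstf2, Nudt21, Pcf11, Papola, Xrn2 and Rprd1b), the paralogue pairs and Exosc2; other names were chosen after their values were seen. Marker lists for neural and endoderm cells were also summed: in untreated iMEFs, 2 of 3 neural genes found in the table summed to 0.660 and 0.444 FPKM and 3 endoderm genes to 5.58 and 6.55 FPKM, with Afp at 0. The 2 neural genes summed to 41.1 and 36.2 FPKM at 20 h, against 4.20 and 4.54 at 0 h, in RAD1. In RAD0 they summed to 57.1 and 64.2 at 20 h, against 9.97 and 10.5 at 0 h. In RNPmesh they summed to 36.8 and 40.1 at 12 h, against 3.66 and 4.36 at 0 h. In iMEFs they summed to 0.434 and 0.414 at 20 h. The part of these shifts in the members' values was not tested. A marker check of the retinoic acid treatment is not reported here. Hi-C, ATAC and other chromatin libraries were not analysed here.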

Additional observations from a re-analysis of the deposited data

Results flagged for a closer look

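For 21 member and time combinations the response to IAA differed between RAD1 and RAD0 cells (limma's test of the difference, adjusted p under 0.05). These were 30.3% of members at 4 h, where 27.2% of all genes differed, and 33.3% at 20 h, where 25.6% did. Each value is the log2 change in RAD1 minus that in RAD0. At 4 h the change was higher in RAD1 for Pcf11 (0.67), Cpsf7 (0.56), Fip1l1 (0.44), Cstf1 (0.40), Xrn2 (0.39) and Papola (0.21). It was lower in RAD1 at 4 h for Rprd1a (-0.60), Ints2 (-0.56), Sympk (-0.55) and Cpsf3 (-0.35). At 20 h it was higher in RAD1 for Fip1l1 (0.75), Clp1 (0.56), Ints4 (0.47), Cstf1 (0.32) and Cpsf7 (0.22). It was lower in RAD1 at 20 h for Rprd1a (-1.75), Ints3 (-0.62), Rprd1b (-0.52), Ints9 (-0.47), Ints8 (-0.35) and Cpsf6 (-0.26). Every direction held after rescaling, and the calls of Cstf1 and Cpsf7 at 20 h were lost there. Of the named genes, Cpsf7, Fip1l1, Cstf1 and Rprd1a differed at both times, each in the same direction.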

How the results depend on the processing

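Leaving out 1 library moved the count of members called by over 1.5 times in 16 of 25 comparisons, and rescaling the libraries did so in 10. After rescaling, members called numbered 3 for ESC 4 h, 14 for ESC 20 h, 12 for 20 over 4 h, 4 for chrRNP, 2 for cyto, 4 for wcl, 21 for untreated np over cyto, 10 for RNPmesh 4 h, 4 for RAD0 4 h and 4 for iMEF 4 h. Directions of called members turned under rescaling in 3 comparisons of total and fractionated RNA and in RAD0 at 20 h, for 12, 6, 15 and 1 members. At ESC 20 h these were Ints3 (0.55), Sympk (0.16), Fip1l1 (0.14), Wdr33 (0.13), Rprd2 (0.11), Ints1 (0.11), Cpsf1 (0.00046), Nudt21 (0.38), Cstf2t (0.36), Papolg (0.13), Cpsf6 (0.20) and Cpsf7 (0.22). For 20 over 4 h they were Ints12 (0.075), Cstf1 (0.16), Wdr33 (0.027), Rprd1b (0.049), Cstf2t (0.080) and Cpsf7 (0.18). For untreated chrRNP over cyto they were Ints2 (0.56), Ints6 (0.84), Ints8 (0.097), Fip1l1 (0.46), Wdr33 (0.68), Rprd2 (0.60), Ints9 (0.089), Cpsf1 (0.13), Cstf2 (0.74), Papola (0.060), Xrn2 (0.14), Cstf2t (0.012), Cpsf6 (0.73), Cpsf7 (0.13) and Rprd1a (0.53), and in RAD0 at 20 h Cpsf7 (0.012). The cause was not tested.

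Without the filter, calls numbered 0 for ESC 4 h, 1 for chrRNP, 1 for np minus cyto, 1 for RNPmesh 4 h and 0 for iMEF 4 h. Without the trend they numbered 6 for RAD0 4 h, 7 for the RAD1 minus RAD0 difference at 20 h and 2 for iMEF 4 h. Same-numbered libraries deviated together with correlations of -0.145 to 0.145 between groups, so the numbers were not taken as pairs. The replicate block gave 4 calls for ESC 4 h, 1 for RNPmesh 4 h and 0 for iMEF 4 h, and moved no other count by over 1.5 times. The members' median sucrose shift was 0.454 with equal totals, 0.521 for summed FPKM of at least 80 and 0.314 over F3 to F8.

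Leaving out 1 library at a time gave 0 to 19 calls for ESC 4 h, 28 to 31 for ESC 20 h, 15 to 27 for 20 over 4 h, 0 for nascent RNA, 1 to 18 for chrRNP, 3 to 4 for np, 0 for cyto, 0 to 1 for wcl, 30 for untreated chrRNP over cyto, 9 to 12 for untreated np over cyto, 0 to 8 for chrRNP minus cyto and 0 for np minus cyto. It gave 0 to 3 for RNPmesh 4 h, 9 to 19 for RNPmesh 12 h, 4 to 5 for RAD0 4 h, 14 to 17 for RAD0 20 h, 13 to 17 for RAD1 4 h, 20 to 22 for RAD1 20 h, 10 to 11 for RAD1 over RAD0, 6 to 10 and 7 to 9 for the differences at 4 and 20 h, 0 for iMEF 4 h and 1 to 15 for iMEF 20 h. Where a group is left with 1 library, that library is assumed to vary like the others. Depth is not given for FPKM, which limits what can be said of low genes such as Rprd1a.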
